A study of Mus musculus with 5 samples.

Results

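Nuclear receptors are transcription factors that bind DNA through a zinc finger domain and, in most members, change partner proteins when a lipid-soluble ligand such as retinoic acid, a steroid or a thyroid hormone occupies the receptor. Without ligand many of them recruit corepressors, and with ligand they recruit coactivators and chromatin remodelling complexes. Many bind copies of the half-site AGGTCA, alone or as a pair, and retinoid X receptors are the common partner in such pairs. In mouse embryonic stem cells (mESCs) retinoic acid acting through these receptors is a classic signal for differentiation.

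The genes described here were the 42 autosomal nuclear receptor genes of a fixed list, which spans 10 groups of the family and does not hold every receptor. A Smarca4 peak was assigned to a gene where it overlapped the gene body or the 5 kb on either side in the GENCODE vM21 annotation of mm10. By this rule 262 of the 78911 peaks in 4 deposited lists were assigned. Smarca4, also called Brg1, is a motor ATPase of BAF remodelling complexes, which move nucleosomes, and Smarcc1 belongs to their core.

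The peaks came from chromatin immunoprecipitation sequencing (ChIP-seq) of Smarca4 in female (XX) and male (XY) mESCs of the C57/Bl6 strain, fixed at day 4 of differentiation after withdrawal of 2i medium. The lines are from the Xmas system, with fluorescent reporters in the X-linked gene Hprt. Within each sex, cells received either the non-silencing control hairpin (Nons) or the hairpin Smarcc1.6 against Smarcc1, called the knockdown here. Each of the 4 groups had 1 library, with 1 input library of chromatin without antibody whose sex is not labelled. The knockdown rests on 1 hairpin, and neither the loss of Smarcc1 nor the identity of the cells can be read from peak lists.

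With 1 library a group, differences between groups have no replicate check, and the 95% intervals below cover counting error only. Per the study duplicate reads were removed, but without molecular identifiers reads cannot be taken as independent molecules. The male lists held 38101 peaks (Nons) and 16740 (knockdown), and the female lists 21289 (Nons) and 2781 (knockdown). Relative to female knockdown, depth was 1.94 times in female Nons, 3.64 times in male Nons and 2.38 times in male knockdown. Peaks rested on few reads: in the peaks assigned here the list's own library had a median of 10 and 8 reads in the male lists and 7 and 6 in the female ones, Nons first, so binding at unlisted regions cannot be dismissed.

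The reference sequences below (GRCm38, forward strand) are examples of the called regions, with each AGGTCA or its reverse complement TGACCT in capitals. The 7 stretches were picked after their values were seen. Of them 4 were taken because they hold a half-site, so their number says nothing of how common it is. The other 3 were called at overlapping positions in a pair of lists and hold none. None of them touches an annotated untranslated region.
Ppard, intron beside a start site, called in female knockdown (chr17:28271401-28271700): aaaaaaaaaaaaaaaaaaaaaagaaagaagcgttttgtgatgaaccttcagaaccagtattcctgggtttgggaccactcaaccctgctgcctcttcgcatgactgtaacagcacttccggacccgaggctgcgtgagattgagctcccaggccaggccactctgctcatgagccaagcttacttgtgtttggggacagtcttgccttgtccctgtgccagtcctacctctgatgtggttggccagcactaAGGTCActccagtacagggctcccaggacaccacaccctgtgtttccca
Nr1d2, intron beside a start site, called in male Nons (chr14:18238201-18238500): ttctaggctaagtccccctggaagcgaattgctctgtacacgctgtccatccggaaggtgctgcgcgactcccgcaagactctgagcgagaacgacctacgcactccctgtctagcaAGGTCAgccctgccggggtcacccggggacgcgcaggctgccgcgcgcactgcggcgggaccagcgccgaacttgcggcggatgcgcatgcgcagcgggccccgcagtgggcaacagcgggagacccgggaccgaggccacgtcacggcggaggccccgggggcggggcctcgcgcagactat
Rara, intron beside a start site, called in male Nons (chr11:98928301-98928600): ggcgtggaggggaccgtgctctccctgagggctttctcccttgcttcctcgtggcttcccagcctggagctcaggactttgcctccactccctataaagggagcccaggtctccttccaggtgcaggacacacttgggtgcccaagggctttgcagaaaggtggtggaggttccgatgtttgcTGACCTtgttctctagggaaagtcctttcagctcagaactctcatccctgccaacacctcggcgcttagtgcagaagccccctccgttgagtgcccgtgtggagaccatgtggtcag
Rxrb, coding exon beside a start site, called in male Nons (chr17:34036351-34036650): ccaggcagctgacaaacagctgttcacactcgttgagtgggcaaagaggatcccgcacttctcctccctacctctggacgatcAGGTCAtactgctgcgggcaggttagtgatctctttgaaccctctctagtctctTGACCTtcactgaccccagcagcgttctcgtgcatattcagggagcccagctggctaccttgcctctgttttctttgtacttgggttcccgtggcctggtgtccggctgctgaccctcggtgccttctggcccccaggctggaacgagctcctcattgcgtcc
Rara, the stretch just before it, called in both Nons lists (chr11:98928001-98928300): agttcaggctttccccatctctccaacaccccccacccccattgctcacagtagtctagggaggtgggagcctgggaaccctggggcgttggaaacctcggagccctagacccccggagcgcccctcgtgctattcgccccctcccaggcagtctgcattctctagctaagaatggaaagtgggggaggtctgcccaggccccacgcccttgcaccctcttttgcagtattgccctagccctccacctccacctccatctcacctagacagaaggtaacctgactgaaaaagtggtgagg
Vdr, intron, called in both Nons lists (chr15:97872301-97872600): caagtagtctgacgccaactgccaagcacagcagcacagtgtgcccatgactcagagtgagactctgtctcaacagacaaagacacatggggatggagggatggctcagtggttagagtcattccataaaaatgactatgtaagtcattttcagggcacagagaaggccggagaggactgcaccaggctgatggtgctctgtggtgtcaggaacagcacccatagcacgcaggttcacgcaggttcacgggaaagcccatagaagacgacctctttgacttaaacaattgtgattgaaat
Rxra, intron, called in both male lists (chr2:27738901-27739200): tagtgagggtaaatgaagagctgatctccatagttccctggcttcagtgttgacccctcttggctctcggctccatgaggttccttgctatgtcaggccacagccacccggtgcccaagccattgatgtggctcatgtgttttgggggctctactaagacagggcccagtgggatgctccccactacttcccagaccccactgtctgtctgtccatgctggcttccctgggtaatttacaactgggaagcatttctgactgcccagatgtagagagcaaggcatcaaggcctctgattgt

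Of the 42 genes 37 had a Smarca4 peak in at least 1 list, or 88.1% (exact interval 74.4 to 96.0), against 64.0% of the 20780 autosomal protein-coding genes. Ppard had 37 peaks over the 4 lists, Rxra 35, Rara 20, Vdr 16 and Esrrg 13. The first 4 of these genes together held 108 of the 262 peaks. Ppard, Rara, Rxra, Thra and Vdr had a peak in all 4 lists, 11 genes in 3 lists, 13 in 2 and 8 in 1. No peak was listed at Hnf4g, Nr2c1, Nr2c2, Nr2e3 or Nr3c1.

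**Figure D1:**
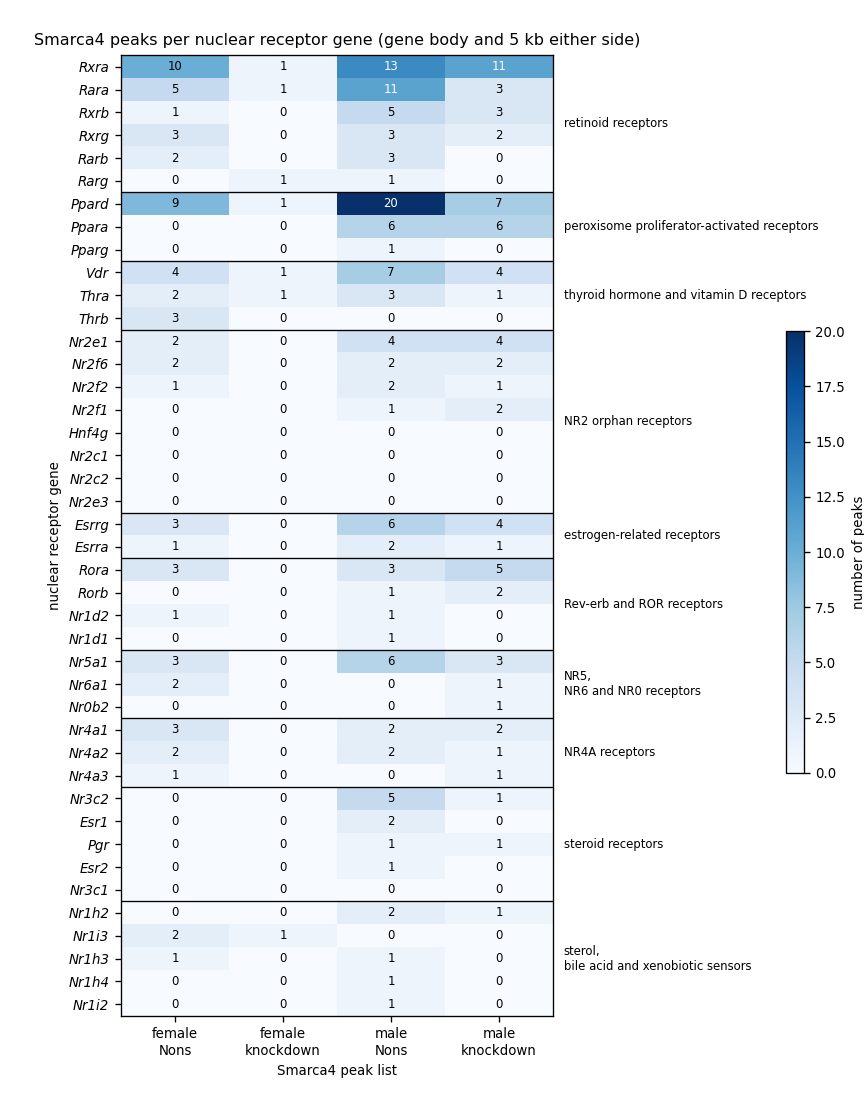
Number of Smarca4 peaks at each of the 42 nuclear receptor genes (rows, grouped by family) in each of the 4 peak lists (columns), with darker blue for more peaks. Ppard reached 20 peaks in male Nons and Rxra 13, while no gene had more than 1 peak in female knockdown.

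In female Nons 23 of the 42 genes had a peak, or 54.8% (38.7 to 70.2), against 38.3% of coding genes. In female knockdown the count was 7 genes, or 16.7% (6.97 to 31.4), against 9.25%. In male Nons it was 32 genes, or 76.2% (60.5 to 87.9), against 52.8%, and in male knockdown 25 genes, or 59.5% (43.3 to 74.4), against 36.0%. The background lay below the interval in every list but female knockdown, narrowly so in female Nons. Receptor genes were also longer, with a median window of 56.8 kb against 27.6 kb for coding genes. Counted per length, peak density was not clearly above that of coding genes. Shares in coding genes matched for length were not computed. Female Nons had 13.0 peaks per Mb at receptor genes, which is 0.936 times (0.724 to 1.19) the density at all coding genes. The ratio was 0.792 (0.318 to 1.63) in female knockdown, 0.905 (0.750 to 1.08) in male Nons and 1.24 (0.969 to 1.57) in male knockdown, and all 4 intervals hold 1.

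The number of genes with a peak moved with depth. If the deeper lists were brought down to female knockdown's depth and kept only peaks of at least 5 reads, the expected number of genes with a peak would be 13.5 in female Nons, 11.9 in male Nons and 13.6 in male knockdown, beside the 7 of female knockdown. Among coding genes the expected shares would be 21.9%, 17.1% and 15.1%, beside 9.25%, so there too the other lists stayed above female knockdown. Counts of genes are therefore not comparable between the lists as deposited.

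Near start sites the density was higher than at coding genes in the male lists. In male Nons 17 receptor genes, or 40.5% (25.6 to 56.7), had a peak within 1 kb of an annotated start site, against 23.0% of coding genes. Density there was 1.64 times (1.11 to 2.34) that of coding genes. In male knockdown 10 genes, or 23.8% (12.1 to 39.5), had one, against 11.7%, with a density ratio of 1.95 (1.09 to 3.22). In female Nons 10 genes, or 23.8% (12.1 to 39.5), had one, against 11.6%, at a ratio of 1.50 (0.775 to 2.62). In female knockdown 3 genes, or 7.14% (1.50 to 19.5), had one, against 1.90%. The density ratio there was 2.72 (0.561 to 7.95), so the intervals of both female ratios hold 1. As a share of each list's peaks those near start sites did not stand apart. Start site windows covered 0.259 of 5.10 Mb at receptor genes and 94.26 of 1128 Mb at coding genes. That is a smaller part at receptor genes, so similar shares do not contradict the higher density. Per gene, start site windows were larger at receptor genes, so the shares of genes are not like for like. Peaks near start sites made up 25.2% (17.7 to 34.0) of the receptor peaks in male Nons against 22.9% of all peaks at coding genes. In male knockdown the shares were 21.4% (12.5 to 32.9) and 22.5%. The female shares were 18.2% (9.76 to 29.6) against 18.7% in Nons and 42.9% (9.90 to 81.6) against 20.5% in the knockdown. G+C content was 51.5% in the start site windows of receptor genes and 48.2% in those of coding genes. Its part in the higher density was not tested, and the intervals are not adjusted for the 8 ratios. Peaks near start sites clustered in some genes, with 5 at Ppard and 4 at Rara in male Nons. The density intervals treat peaks as independent, so they are too narrow where peaks cluster.

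Base composition moved closely with peak density among the receptor genes. Rxrb, with 57.3% G+C, had 54.3 peaks of the 4 lists per 100 kb. Esr1, with 41.2% G+C, had 0.495 per 100 kb. Across the 42 genes Spearman's correlation between density and G+C content was 0.838, a description over genes that share the same libraries. Density also fell with window length, with a correlation of -0.572, and the parts of length and G+C content were not separated. Nr2e3 went against this, with 48.9% G+C and no listed peak.

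**Figure D2:**
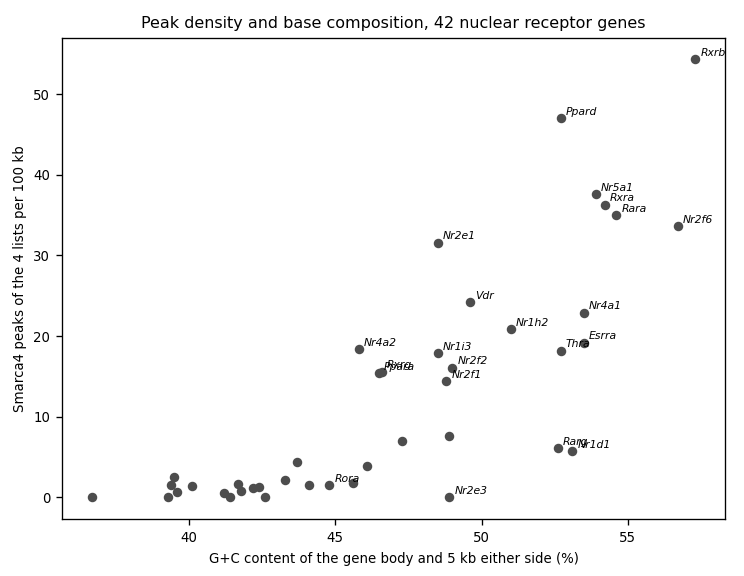
Smarca4 peaks of the 4 lists per 100 kb of window (vertical axis) against G+C content of the window (horizontal axis, percent), 1 point per nuclear receptor gene. Rxrb and Ppard are highest, at 54.3 and 47.0 peaks per 100 kb while genes of low G+C content lie near 0.

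Of the 262 peaks, 154 lay in introns, 53 touched a coding exon, 18 an untranslated exon and 5 an exon of a noncoding transcript. The other 13 and 19 lay in the upstream and downstream flank. Some belong as much to a neighbour: 22 overlapped another gene and 14 lay within 1 kb of another gene's start site. In male Nons 21.8% of the peaks at receptor genes (14.8 to 30.4) touched coding sequence, against 33.0% of all peaks at coding genes. In female Nons the share was 19.7% (10.9 to 31.3) against 30.6%, which lies inside the interval, whereas the male Nons background lies above its interval.

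Below, reads at a region are given for the female libraries and then for the male ones, Nons before knockdown in each sex, followed by the input. They are not scaled, so 1 read in female knockdown corresponds to 3.64 in male Nons. A region was listed because its calling library had high reads, so a high value in that library is no separate result. Where peaks of several lists overlap, the values are those of the widest, or of 1 of several equally wide.

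Among the receptors for retinoic acid, Rara had peaks beside some of its annotated start sites. A start site lying between these had no peak within 1 kb. The intron stretch with identical ends in both Nons lists (chr11:98928001-98928300, shown above) held 7, 1, 9 and 2 reads (input 6). The stretch after it held 4, 1, 7 and 3 (input 3) and was called in male Nons only. Around a later start site male Nons had neighbouring peaks. They held 0, 0, 7 and 2 reads (input 2, chr11:98960251-98960550) and 0, 0, 11 and 1 reads (input 3, chr11:98960551-98961000). In both of these the female libraries had no read. Further along the gene, a region called in both male lists (chr11:98965201-98965650) held 5, 0, 9 and 8 reads (input 3). One called in female knockdown and male Nons (chr11:98968051-98968350) held 0, 5, 7 and 4 (input 3), so female Nons was the library without reads.

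Rarb and Rarg, which encode the other receptors for retinoic acid, had fewer peaks. At Rarg female knockdown had a peak beside a start site (chr15:102252151-102252750) with 5, 7, 7 and 4 reads (input 6). A different start site was called in male Nons (chr15:102256351-102256800), with 0, 0, 10 and 0 reads and 8 in the input. Only male Nons had reads at the second of these. Rarb had 3 male Nons peaks and 2 of female Nons over a window of 398 kb, none within 1 kb of a start site.

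Rxra, the most widely used partner receptor, had 13 peaks in male Nons, 11 in male knockdown, 10 in female Nons and 1 in female knockdown. Start sites within the gene were called in several lists. A peak in female Nons (chr2:27709351-27709800) held 10, 0, 7 and 2 reads (input 2). A region of both male lists nearby (chr2:27710251-27710700) held 4, 1, 10 and 8 (input 2). Scaled to depth, the first was highest in female Nons and the second in male knockdown. Other peaks near start sites held 8, 1, 4 and 4 reads in the female Nons peak (chr2:27741001-27741450, input 3), 3, 2, 12 and 3 in a male Nons peak (chr2:27711451-27712050, input 6) and 0, 3, 8 and 9 in a male knockdown peak (chr2:27677851-27678300, input 5).

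Away from start sites, Rxra had 4 further regions in a pair of lists. The intron called at 1 position in both male lists and shown above (chr2:27738901-27739200) held 0, 1, 7 and 7 reads, with none in the input. Another of both male lists (chr2:27683851-27684450) held 7, 3, 8 and 10, also with an input of 0. Both Nons lists shared an intron (chr2:27724501-27724950) with 7, 2, 11 and 5 reads (input 4) and an upstream region (chr2:27674551-27675000) with 4, 0, 10 and 5 (input 1). The female knockdown peak of Rxra (chr2:27682651-27683250) held 6, 9, 3 and 8 reads (input 5), the second most of any peak in that list at these genes.

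Rxrb had the most peaks per length over the 4 lists together, with 9 in a window of 16.6 kb, of which 5 were in male Nons, 3 in male knockdown and 1 in female Nons. In female Nons alone it was not the densest. In male Nons the peaks near its start sites held 4, 0, 12 and 2 reads (input 1, chr17:34030801-34031250), 6, 0, 9 and 6 (input 6, chr17:34035601-34036050) and 4, 1, 7 and 1 (input 3, the stretch shown above). Female knockdown had at most 1 read in these. In male knockdown the peak chr17:34037251-34037700 held 6, 1, 3 and 8 reads (input 6). The first of these regions also lies at start sites of Slc39a7, a zinc transporter gene, so it cannot be given to Rxrb alone.

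Rxrg held the merged region with peaks of the most lists. Its stretch at chr1:167638651-167639400 joins peaks of female Nons, male Nons and male knockdown. The female and male Nons peaks share no base, and each overlaps the male knockdown peak. The female Nons peak held 7, 1, 6 and 8 reads (input 3). Female Nons also had a peak at the start site (chr1:167618101-167618550) with 8, 0, 4 and 5 reads (input 5). That peak holds 2 half-sites.

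**Figure D3:**
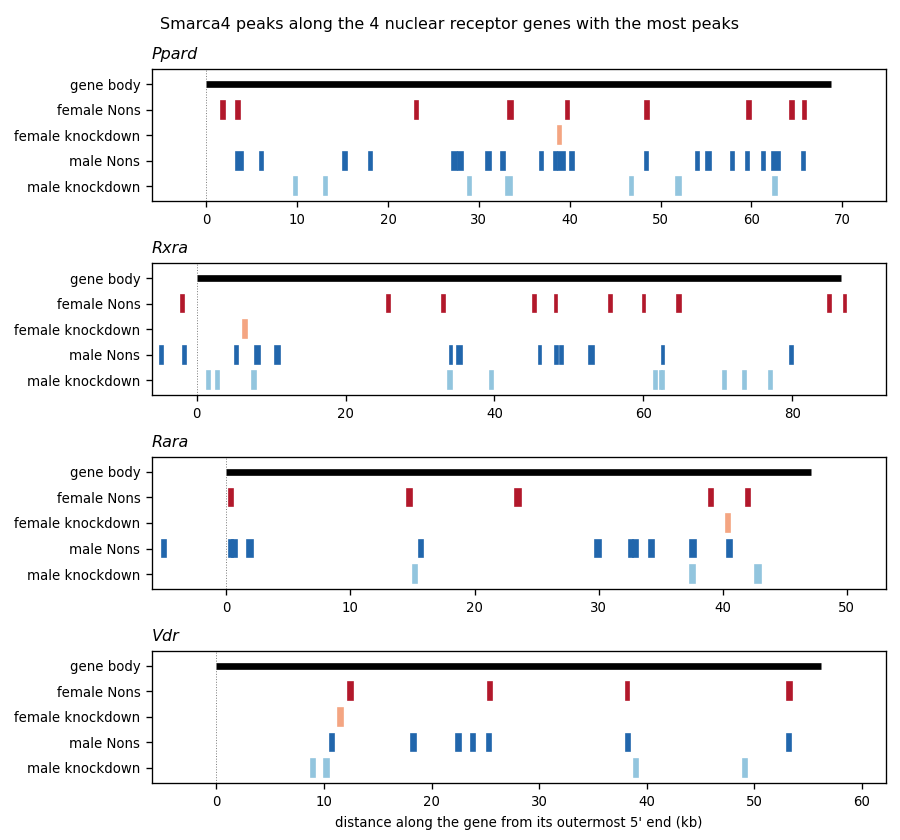
Position of Smarca4 peaks (coloured bars, 1 row per peak list) along Ppard, Rxra, Rara and Vdr, as distance in kb from the outermost 5′ end of the gene, with the gene body in black. Peaks lie along the whole gene bodies, 20 of them at Ppard in male Nons, and only 1 peak of female knockdown falls at each gene.

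Among the peroxisome proliferator-activated receptors, fatty acid sensors that pair with retinoid X receptors, Ppard had the most peaks of all 42 genes over the 4 lists together. It had 20 in male Nons, 7 in male knockdown, 9 in female Nons and 1 in female knockdown. Its lead came from male Nons, since Rxra had more in female Nons and in male knockdown and as many in female knockdown. The female knockdown peak beside a start site, shown above, held 0, 6, 9 and 2 reads (input 2), and the wider male Nons peak around it (chr17:28271401-28272150) held 3, 7, 16 and 6 (input 7). Scaled to depth, this region was highest in female knockdown, which is among the libraries that called it. It was 1 of 2 regions at these genes that female knockdown shared with another list.

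Other Ppard start sites were called in 1 or both Nons lists. A region of both Nons lists (chr17:28292251-28292700) held 10, 1, 8 and 4 reads (input 4). A female Nons peak (chr17:28272301-28272600) held 6, 0, 6 and 0 (input 3). Female knockdown had 1 read or none in each. Male Nons alone had peaks with 2, 1, 7 and 5 reads and an input of 0 (chr17:28270951-28271250), with 2, 0, 9 and 5 (input 3, chr17:28272751-28273200) and with 1, 2, 9 and 3 (input 4, chr17:28293901-28294200).

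Within Ppard, a region called in both male lists (chr17:28294951-28295850) held 10, 1, 22 and 10 reads, the most of any male Nons peak at these genes, with 15 in the input. In an intron, a region of both Nons lists (chr17:28236001-28236750) held 10, 1, 18 and 1 (input 11). Both knockdown libraries, whose lists did not call it, were low there. Regions called in female Nons with another list also held 10, 1, 6 and 13 reads (input 6, chr17:28265701-28266300, with male knockdown), 9, 0, 6 and 3 (input 6, chr17:28281001-28281450, with male Nons) and 5, 2, 7 and 5 (input 5, chr17:28298251-28298550, with male Nons).

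Ppara, which drives fatty acid oxidation in liver, had 6 peaks in each male list and none in either female list. Its start site region (chr15:85735801-85736100 in male Nons) held 1, 0, 8 and 6 reads (input 3) and overlapped a male knockdown peak. A second start site peak in male Nons (chr15:85734901-85735500) held 2, 1, 13 and 1 (input 8), and one in male knockdown (chr15:85736551-85736850) held 4, 0, 6 and 7 (input 1). Scaled to depth, both female libraries lay below both male ones in the first of these, while in the last female Nons lay between the male libraries. Pparg, the receptor of fat cells, had 1 intron peak in male Nons.

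Vdr, the vitamin D receptor, had 4, 1, 7 and 4 peaks in the order of the libraries. Its intron stretch shown above was called in both Nons lists, and the male Nons peak over it (chr15:97872151-97872600) held 6, 1, 14 and 1 reads with none in the input. A coding exon called in both Nons lists (chr15:97857151-97857600) held 8, 1, 9 and 0 (input 3). In both regions the knockdown libraries had at most 1 read, while the Nons libraries were high, as calling in the Nons lists requires. Another region of both Nons lists (chr15:97885051-97885350) held 6, 1, 6 and 4 reads (input 1). The female knockdown peak (chr15:97898851-97899300) held 5, 10, 3 and 3 reads and none in the input, the most of any peak in that list at these genes.

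The thyroid hormone receptor genes differed in their peaks. Thra had peaks in all 4 lists, and the female Nons peak near its start site (chr11:98744701-98745000) held 7, 0, 4 and 2 reads (input 1). Thrb had 3 intron peaks in female Nons and none elsewhere, over a window of 388 kb. One male Nons peak at the end of Thra (chr11:98765851-98766150) lies in the flank of Nr1d1 too and was counted for both.

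Among the receptors of the circadian clock, the Rev-erb repressors and the ROR activators that share their sites, Rorb had a start site region called in both male lists (chr19:19110151-19110600). It held 1, 2, 13 and 10 reads (input 2). Scaled to depth both male libraries were above both female ones, and female Nons was lowest. The Nr1d2 peak shown above held 0, 0, 9 and 1 reads (input 3). Rora, which spans a window of 744 kb, had 3 peaks in female Nons, 3 in male Nons and 5 in male knockdown, none near a start site. One of them held 11 reads in female Nons and none in male Nons (chr9:68906251-68906850, 3 in male knockdown and 3 in the input).

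Among the NR2 orphan receptors, Nr2e1, a regulator of neural stem cells also called Tlx, had the most peaks. Around its start sites male Nons peaks held 4, 0, 19 and 8 reads (input 4, chr10:42580651-42581400), 1, 1, 9 and 9 (input 3, chr10:42579301-42579750) and 5, 3, 10 and 8 (input 6, chr10:42580051-42580500). The first and second overlapped male knockdown peaks. The first had 19 male Nons reads, after the 22 at Ppard and the 20 at Nr5a1. Another male knockdown peak (chr10:42583051-42583650) held 2, 6, 7 and 15 reads (input 10) and lies near a start site of Ostm1 as well. A region of both Nons lists (chr10:42578251-42578550) held 4, 0, 9 and 3 reads (input 1).

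The COUP factors Nr2f1 and Nr2f2, repressors active in neural crest, heart and vessels, and their relative Nr2f6 had between 3 and 6 peaks each. A region over a coding exon near a start site of Nr2f2 was called in both Nons lists (chr7:70357651-70358400), with 8, 1, 16 and 6 reads (input 5). A male knockdown peak at another Nr2f2 start site (chr7:70360501-70360950) held 4, 1, 4 and 10, with 12 in the input. At Nr2f1 male Nons had a start site peak (chr13:78195301-78195750) with 3, 1, 12 and 4 reads (input 8). Input reads were thus high at some of these sites. Nr2f6 had start site peaks with 1, 0, 10 and 7 reads in male Nons (input 4, chr8:71374651-71375100) and 1, 0, 5 and 9 in male knockdown (input 2, chr8:71380351-71380800). Its upstream region called in female Nons and male knockdown (chr8:71383651-71384100) held 10, 0, 6 and 8 (input 3).

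The NR4A genes are immediate early genes, induced within minutes of many stimuli. Nr4a1 held the male knockdown peak with the most reads at these genes, 1, 2, 12 and 22 reads (input 4, chr15:101263351-101264400) in an intron of its long transcripts. This peak is 1050 bp wide, and several narrower ones had a higher fold over input. Its downstream flank held the female Nons peak with the most reads, called in male knockdown too, with 13, 3, 9 and 10 reads (input 6, chr15:101279551-101280300). Another female Nons peak there held 11, 2, 4 and 4 (input 10, chr15:101278501-101279100). Peaks near start sites were low: 6, 2, 6 and 3 reads at Nr4a1 (input 2, chr15:101272951-101273250), 6, 1, 7 and 3 at Nr4a2 (input 3, chr2:57115801-57116100) and 3, 1, 5 and 8 at Nr4a3 (input 5, chr4:48048901-48049350). The flank of Nr4a2 held a region of both Nons lists (chr2:57102901-57103200) with 6, 0, 8 and 4 reads (input 4).

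Nr5a1, the steroidogenic factor of gonad and adrenal, had 12 peaks. A male Nons peak (chr2:38708851-38709750) held 5, 5, 20 and 8 reads (input 5). Near its start sites male knockdown had peaks of 5, 0, 9 and 14 reads (input 8, chr2:38710501-38711100) and 2, 2, 4 and 8 (input 2, chr2:38712301-38712600), and male Nons one of 3, 2, 16 and 8 with 13 in the input (chr2:38714701-38715300). No start site peak of Nr5a1 was called in a female list. A region of both male lists (chr2:38697301-38697600) held 3, 0, 7 and 8 reads and none in the input. Nr6a1, which silences Pou5f1 as mESCs differentiate, had a start site peak in female Nons (chr2:38742451-38742900) with 9, 0, 3 and 0 reads (input 3). It also had an intron peak (chr2:38823751-38824350) with 12, 0, 8 and 6 (input 9). Nr0b2, a receptor without a DNA-binding domain, had 1 downstream peak in male knockdown.

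The steroid receptors had few peaks for their length, 11 in all and none in a female list. Pgr, the progesterone receptor, was called over a coding exon near a start site in both male lists (chr9:8900851-8901750 in male Nons), with 6, 2, 18 and 14 reads (input 7). Scaled to depth, female Nons was lower there than both male libraries. Nr3c2, the mineralocorticoid receptor, had 5 peaks in male Nons and 1 in male knockdown, Esr1 had 2 in male Nons and Esr2 1. Of the estrogen-related receptors, regulators of mitochondrial genes, Esrra had a start site peak in male Nons (chr19:6920101-6920550) with 8, 1, 12 and 7 reads (input 6). Its upstream region called in both Nons lists (chr19:6925351-6925800 in male Nons) held 4, 0, 11 and 5 (input 3) and overlaps Kcnk4 and Catsperz. Esrrg had 13 peaks over a window of 616 kb, none near a start site and none in female knockdown.

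Among the sensors of sterols, bile acids and foreign compounds, Nr1h3, the liver X receptor alpha, had 1 region, at its start site and in both Nons lists. The male Nons peak (chr2:91194901-91195500) held 8, 2, 17 and 1 reads with 9 in the input. The region was high in both Nons libraries, whose lists called it, and lowest in male knockdown. Nr1h2, the beta form, had a start site peak in male Nons (chr7:44553601-44553900) with 2, 0, 7 and 1 reads (input 3). Nr1i3, a sensor of foreign compounds in liver, had a start site peak in female knockdown (chr1:171214051-171214500) with 2, 6, 5 and 4 reads (input 5). Nr1h4 and Nr1i2 each had 1 peak in male Nons.

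**Figure D4:**
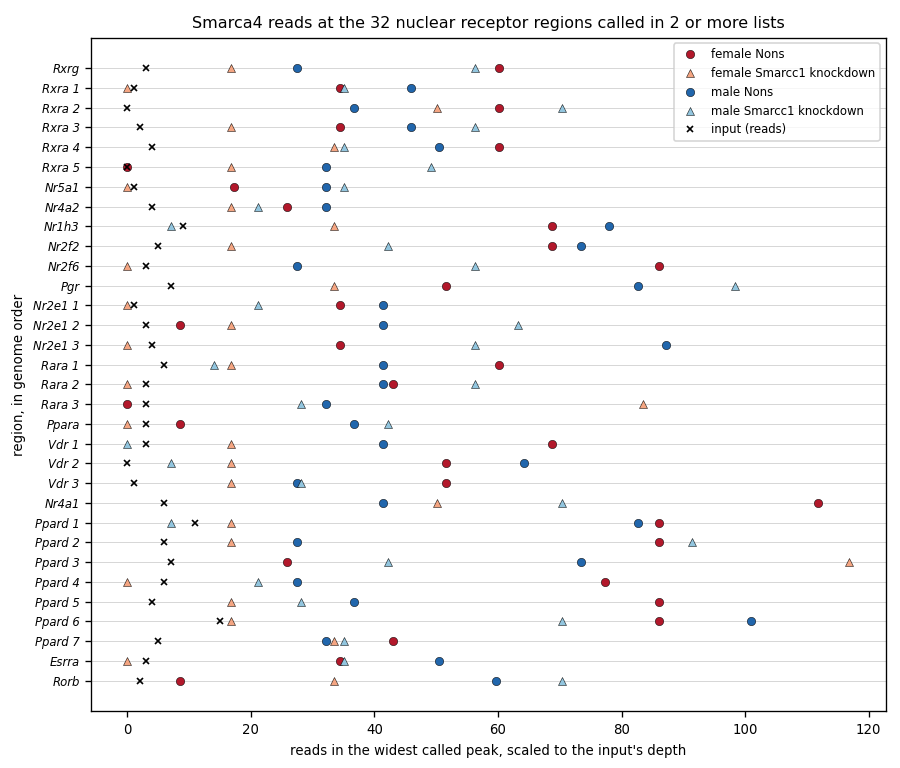
Reads at the 32 regions of nuclear receptor genes called in at least 2 lists, each scaled to the depth of the input (horizontal axis), for the 4 libraries, with the reads of the input as crosses. Regions of a gene are numbered in genome order. In Ppard 3 and Rara 3, which its own list called, female knockdown is the highest library.

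Most regions were seen in 1 list. Overlapping peaks formed 228 regions, of which 196 were in 1 list, 31 in 2 and 1, at Rxrg, in 3. In the last, no single position was called in all 3 lists. The pair of Nons lists shared most, with 15 regions in just these lists. The Nons lists were also the 2 longest, and such regions were not counted over all peaks of the lists. Of the 66 female Nons peaks 22.7% (13.3 to 34.7) overlapped a male Nons peak, against 14.3% of all autosomal female Nons peaks. Of the 119 male Nons peaks 13.4% (7.88 to 20.9) overlapped a female Nons peak, against 7.96%. Between the male lists, 17.1% of the 70 knockdown peaks (9.18 to 28.0) overlapped a Nons peak against 14.3%, and 10.1% of the Nons peaks (5.32 to 17.0) a knockdown peak against 6.29%. Of the 7 peaks of female knockdown none (0%, up to 41.0) overlapped the female Nons list, against 7.26%. The background lay within the interval in all 5 comparisons, just above the lower limit for male Nons against female Nons.

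Reads were next compared in regions taken from the lists of other libraries, which limits the effect of calling but does not remove it. Regions also called in a compared library were kept unless stated. The source lists were uneven, for example with 7 peaks at these genes in female knockdown and 70 in male knockdown. In female cells reads at nuclear receptor genes were lower in the knockdown than in Nons, in a ratio close to that at all coding genes. In 177 regions called in male lists, female knockdown had 175 reads and female Nons 542, a depth-scaled ratio of 0.627 (0.526 to 0.745). Over the 39559 such regions of all coding genes the ratio was 0.637 (0.630 to 0.645). Scaled reads were higher in the knockdown in 24.3% of the receptor regions and in 26.5% of the coding regions. Of 35 receptor genes with such a region, 26 were lower in the knockdown and 7 higher. Lower and higher genes were not counted among all coding genes, so these counts have no background.

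In male cells the ratio was nearer 1. In 73 regions called in female lists, male knockdown had 215 reads and male Nons 366, a ratio of 0.900 (0.757 to 1.07), against 0.972 (0.961 to 0.983) in coding genes. Without regions also called in a male list the ratios were 1.01 (0.801 to 1.27) and 1.03 (1.01 to 1.04), so the direction in coding genes turned. Of 24 genes 13 were lower in the knockdown and 11 higher, again without a count among coding genes. The regions of the female and male comparison are not the same, so the ratios were not tested against each other.

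Between the Nons libraries, 77 regions called in a knockdown list gave a female over male ratio of 1.15 (0.971 to 1.36), against 1.09 (1.08 to 1.11) in coding genes. Without regions also called in a Nons list the ratio was 1.30 (1.06 to 1.59), against 1.13 in coding genes, which lies inside the interval. That choice drops regions by their reads in the libraries compared. In gene bodies alone the ratio was 1.05 (0.878 to 1.26).

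Single genes rested on few reads. In female cells the interval lay below 1 for 3 of the 35 genes and above 1 for none, against 8.20% and 0.205% of 12185 coding genes. Ppard had 28 knockdown and 94 Nons reads in 26 regions, a ratio of 0.578 (0.365 to 0.890). Rxrb had 7 and 35 in 8 regions, a ratio of 0.388 (0.146 to 0.887), and Nr2f6 had 0 and 12 in 4 regions, with an upper limit of 0.699. All 3 intervals also hold the 0.637 of coding genes. Some of the Ppard regions and a Nr2f6 region were also called in female Nons. At Rara the female ratio was 0.971 (0.498 to 1.82) and at Rxra 0.809 (0.486 to 1.31).

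In male cells the interval lay below 1 for 3 of the 24 genes, Rara, Vdr and Nr1h3, and above 1 for Nr2f6, against 2.56% and 1.74% of 8426 coding genes, which were not matched for length or number of regions. Rara had 10 knockdown and 38 Nons reads in 6 regions called in female lists, a ratio of 0.403 (0.179 to 0.825). Vdr had 7 and 31 in 5 regions, a ratio of 0.346 (0.129 to 0.801). Nr1h3 had 1 and 17 in its 1 region, a ratio of 0.0901 (0.00216 to 0.575). That region was also called in male Nons, as were some of those at Rara and Vdr, so high Nons reads there are partly set by calling. Nr2f6 had 14 and 8 in 2 regions, 1 of which was also called in male knockdown, a ratio of 2.68 (1.05 to 7.38). Ppard at 0.903 (0.569 to 1.41) and Rxra at 1.20 (0.729 to 1.95) had intervals that hold 1. These intervals are not adjusted for the number of genes, and the genes were singled out after their values were seen.

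**Figure D5:**
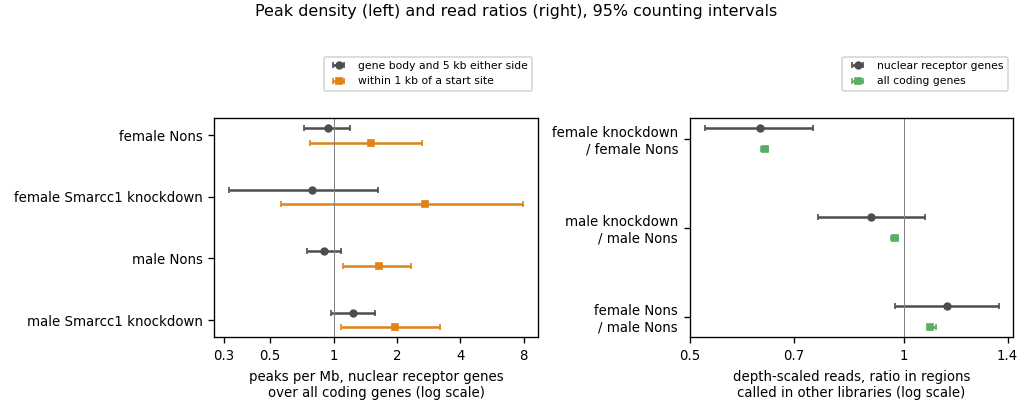
Left, density of peaks at nuclear receptor genes over that at all coding genes for each list, on a log axis, over gene windows (circles) and start site windows (squares). Right, depth-scaled read ratios at nuclear receptor genes (circles) and all coding genes (squares), on a log axis. Bars are 95% counting intervals, and the female knockdown over Nons ratio of 0.627 lies next to the 0.637 of coding genes.

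A fit of sex plus hairpin over all 71897 regions with edgeR's quasi-likelihood test called 0 regions (0%) at a Benjamini-Hochberg adjusted p under 0.05 for either term. Among them were the 228 regions of receptor genes, with a lowest adjusted p of 0.999 for sex and 0.997 for the hairpin. At an unadjusted p under 0.05 there were 321 regions for sex and 301 for the hairpin, of which 2 and 2 were at receptor genes. These are 0.446% and 0.419% of all regions, well under the 5% that p-values would give with no differences, so the fit could call little and its counts of 0 do not show that regions were alike. DESeq2 called 0 as well, with 337 and 248 regions at an unadjusted p under 0.05. In the fit the median log2 change with the hairpin was -0.62 over the receptor regions and -0.7 over all regions, and with female sex -0.41 and -0.4. These medians include the regions' own calling libraries.

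The half-site AGGTCA, searched on both strands, had a similar share in these peaks and in all peaks of the 3 larger lists. It was in 27.3% of the 66 female Nons peaks (17.0 to 39.6) against 27.8% of all autosomal female Nons peaks. The shares were 26.9% (19.2 to 35.8) against 26.7% in male Nons and 25.7% (16.0 to 37.6) against 26.0% in male knockdown. In female knockdown 3 of 7 peaks held it, or 42.9% (9.90 to 81.6), against 25.0%. Median widths were 300 bp at receptor genes and 450 bp elsewhere in female Nons, 450 and 450 bp in male Nons, 300 and 300 bp in male knockdown and 450 and 300 bp in female knockdown. Paired half-sites in 1 orientation, 1 to 5 bases apart, the arrangement bound by retinoid and thyroid hormone receptors, were in none of the 262 peaks and in 0.183% to 0.301% of all peaks. Such a match is a description of the letters and no sign of binding.

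Genes that make, carry or break down retinoic acid, the ligand of Rara, Rarb and Rarg, were read by the same rule. Of 15 such genes 12 had a peak in male Nons, 5 in male knockdown, 5 in female Nons and 2 in female knockdown. The share of 80.0% in male Nons (51.9 to 95.7) compares with the 52.8% of coding genes. The shares were 33.3% (11.8 to 61.6) in male knockdown against 36.0%, 33.3% (11.8 to 61.6) in female Nons against 38.3% and 13.3% (1.66 to 40.5) in female knockdown against 9.25%. Each background lies inside its interval. Stra6, the cell surface receptor for the retinol carrier, had the most, with 7 peaks in female Nons, 12 in male Nons and 4 in male knockdown. Cyp26b1, which breaks down retinoic acid, had 3, 1, 9 and 1 in the order of the libraries. No peak was listed at Aldh1a1 or Crabp2.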

How the data were processed

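Smarca4 ChIP-seq was analysed from 4 deposited peak lists, 1 per library, grouped by sample title. Per the study's methods, single-end reads were aligned to mm10 with bowtie2 and duplicate reads were removed. Peaks were called against the input with MACS2 in Seqmonk. The study's reporting form names tophat instead of bowtie2, and which was used is unknown. The submitters' processing notes name Bowtie2 and MACS2 without versions. The deposited ChIP values are a signal per region, scaled by the authors to the input's depth. The input column as deposited holds raw read counts. All 263127 ChIP values above 0 were whole multiples of 1 step per library, within 0.01 reads, so reads were recovered by dividing by the step. The lists alone give depth relative to the input, and the study's reporting form states the mapped reads of each library. The lists hold no fold, p or q, so the scaled signal over the input reads plus 1 served as the fold over input.

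Peaks were assigned with GENCODE vM21 from an overlap of 1 bp, and sequences were read from GRCm38, the assembly of mm10. Shares have exact Clopper-Pearson intervals, densities exact Poisson intervals and read ratios exact conditional binomial intervals, all at 95%. Read ratios left out regions of 50 or more input reads and kept the widest of overlapping peaks. The additive fit used edgeR 4.0.16 in R 4.3.3, with DESeq2 1.42.0 as an alternative and with library sizes set by relative depth and Benjamini-Hochberg adjustment. Its script was tested on counts simulated with a sex difference. Those counts varied less than the real ones, and only regions of many reads were changed. That run checks the code and not what the fit could find in these data. With 4 libraries it leaves 1 residual degree of freedom and assumes 1 hairpin effect for both sexes. Other steps used Python 3.11.15 with scipy 1.17.1.

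The genes and lists were chosen with earlier results of these data known. By rule, reads are printed for regions within 1 kb of a start site of a receptor gene, regions called in at least 2 lists and the 3 regions with most reads in each list. A few further regions were named after their values were seen. Alternatives changed the window, the overlap, the input filter, the threshold on peaks, the depth, the scaling, the tool and the motif.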

Additional observations from a re-analysis of the deposited data

How the results depend on the processing

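Over the alternatives the knockdown over Nons read ratio at receptor genes ran from 0.627 to 0.675 in female cells and from 0.868 to 1.01 in male cells, and the female over male ratio from 1.05 to 1.30. The male ratio of coding genes turned from 0.972 to 1.03 without regions called in a male list. The filter at 20 input reads left out no receptor peak, and thinning cannot change female knockdown. Counting only peaks within 1 kb of a start site gave 17 genes with a peak in male Nons, 10 in male knockdown, 10 in female Nons and 3 in female knockdown, and density ratios of 1.64, 1.95, 1.50 and 2.72 in this order. Keeping the 50% of peaks with the highest fold over input left 4 genes in female knockdown. Thinning to the depth of female knockdown gave expected counts of 13.5 genes in female Nons, 11.9 in male Nons and 13.6 in male knockdown. The longer half-site AAGGTCA was in 7.58% of female Nons peaks against 7.78% of all peaks, in 10.1% of male Nons peaks against 7.46%, in 5.71% of male knockdown peaks against 7.28% and in 14.3% of the 7 female knockdown peaks against 7.15%. All versions of the additive fit, with 1 hairpin effect shared by both sexes, called 0 regions. With 1 residual degree of freedom such counts had little room to change. The lists' few reads per peak limit every comparison of single genes.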

Other observations

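Coactivators, the proteins that ligand-bound nuclear receptors recruit, were read by the same rule from a list of 14 genes. In male Nons 11 had a peak, in male knockdown 8, in female Nons 8 and in female knockdown 3. The share of 78.6% in male Nons (exact 95% interval 49.2 to 95.3) compares with 52.8% of coding genes. The shares were 57.1% (28.9 to 82.3) in male knockdown against 36.0%, 57.1% (28.9 to 82.3) in female Nons against 38.3% and 21.4% (4.66 to 50.8) in female knockdown against 9.25%. Each background lies inside its interval. Ncoa2, a p160 coactivator, had 7 peaks in male Nons, 2 in male knockdown, 7 in female Nons and 1 in female knockdown. Crebbp, a histone acetyltransferase, had 2, 1, 4 and 0 in the same order. No peak was listed at Kat2b or Ppargc1a.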
